A study of Arabidopsis thaliana with 8 samples.

Results

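IRX15 and GUT2 (IRX10), a pair of Arabidopsis genes of secondary wall xylan, were set beside their closest relatives IRX15-L and GUT1 (IRX10-L) in protoplasts, which are plant cells freed of their walls. The 4 genes were chosen by locus (AT3G50220, AT1G27440, AT5G67210 and AT5G61840), and each had 1 probe set among the 22746 of the array outside its controls. All 4 were among the 14768 probe sets that passed the filter on low signal. RNA came from 4 groups of 2 arrays each: VND7XVE cells with cycloheximide and estradiol, VND7XVE cells with cycloheximide alone (VND7XVE control), SND1XVE cells with cycloheximide and estradiol, and SND1XVE cells with cycloheximide alone (SND1XVE control). VND7 and SND1 are NAC transcription factors, VND7 the master switch of vessel walls and SND1 that of fibre walls, and XVE marks an estradiol-activated form. Every group, the controls included, received cycloheximide, an inhibitor of protein synthesis, so that the design asks which genes each factor turns on without newly made proteins. Estradiol was never given to cells without VND7XVE or SND1XVE, so that its own effect and that of the factors cannot be told apart.

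Xylan is the main hemicellulose of the secondary walls of xylem vessels and fibres. Its backbone is a chain of xylose units built in the Golgi from UDP-xylose, and it is then decorated with glucuronic acid, methyl and acetyl groups. GUT2 and GUT1 are glycosyltransferases of family GT47 that elongate the backbone, and plants that lack both make much less of it than plants that lack either one. IRX15 and IRX15-L are Golgi proteins with a DUF579 domain, are also partly redundant, and are needed for xylan chains of normal length.

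The authors' intensities share nearly the same trimmed mean on all 8 arrays. Array medians lay between 108.3 and 109.9 intensity units on the estradiol arrays and between 99.0 and 102.0 on the control arrays. The level that a probe set had to exceed on at least 2 arrays to be tested, the 40th percentile of the array, lay between 44.5 and 50.4 units. Log2 signals of the 2 arrays of a group correlated at 0.977 to 0.985 across probe sets. The labels name no tissue for the protoplasts. Of 8 mesophyll markers 2 had named probe sets, RCA with 2192 to 2763 units over the 8 arrays and LHCB4.1 with 2559 to 5600. Of 4 guard cell markers 2 had one, FMA with 49.1 to 118.3 units and AT1G22690, which did not exceed 37.0. The epidermis and phloem markers listed were not analysed here. LHCB4.1, a gene of the photosynthetic antenna, had 5178 to 5600 units on the VND7XVE arrays, against 2559 to 2935 on the SND1XVE arrays, and its part in the differences between the lines was not tested. Nothing in the labels says that the 2 arrays of a group came from separate cultures, and p-values measure the spread between these arrays, which may be technical. In bulk RNA, more cells that express a gene and more RNA per cell cannot be told apart.

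Estradiol raised IRX15 in both lines, from signals near the bottom of the array. With estradiol, VND7XVE cells had 633.3 and 641.1 intensity units, against 6.2 and 6.6 in the VND7XVE controls. SND1XVE cells had 556.0 and 594.8 units with estradiol, against 6.2 and 4.2 in the SND1XVE controls. Every estradiol array was far above every control array, and the control signals of both lines lay between the 10.1th and the 16.6th percentile of their arrays, where the estradiol signals lay between the 74.8th and the 77.1th.

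On the scale of log2(signal + 16), which understates the change of a gene with so low a control signal, IRX15 rose by 4.87 ± 0.22 in VND7XVE cells and by 4.80 ± 0.22 in SND1XVE cells (SE, 2 arrays per group; limma, adjusted p = 1.09e-10 and 3.51e-10). The ratio of the deposited mean signals was 99.6 in VND7XVE and 111 in SND1XVE, a ratio whose exact size rests on control means of only 6.4 units in VND7XVE and 5.2 units in SND1XVE. IRX15 passed the filter only through its estradiol arrays. Without the filter it was called in both lines as well (adjusted p = 6.68e-07 in VND7XVE and 1.37e-06 in SND1XVE).

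Rises of the same size or larger were few. Among all tested probe sets IRX15 had the 47th largest rise in VND7XVE and the 11th largest in SND1XVE. These places depend on the pseudocount: with 1 in place of 16, IRX15 stood 33rd in VND7XVE and 4th in SND1XVE, and with 64 it stood 67th and 18th. The effects themselves were then 6.43 in VND7XVE and 6.56 in SND1XVE with a pseudocount of 1, and 3.32 and 3.21 with 64.

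GUT2, the backbone enzyme IRX10, also rose in both lines, from a higher start. VND7XVE cells had 1143.2 and 1293.3 intensity units with estradiol, against 152.9 and 136.5 in the VND7XVE controls. SND1XVE cells had 1060.1 and 1000.8 units with estradiol, against 131.7 and 163.2 in the SND1XVE controls. The groups did not overlap within either line, and the control signals lay between the 53.5th and the 56.4th percentile of the arrays, so that GUT2, unlike IRX15, was above the filter level in the controls.

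The rise of GUT2 was 2.94 ± 0.14 in VND7XVE and 2.68 ± 0.14 in SND1XVE on the log2 scale (limma, adjusted p = 2.05e-10 and 1.34e-09), or 7.68-fold and 6.43-fold on signals with 16 added. The ratio of the deposited mean signals was 8.42 in VND7XVE and 6.99 in SND1XVE, close to these folds since the pseudocount weighs little at this level. GUT2 had the 148th largest rise in VND7XVE and the 70th largest in SND1XVE. A gene that already had a mid-array signal in controls was thus among the larger rises in both lines.

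**Figure D1:**
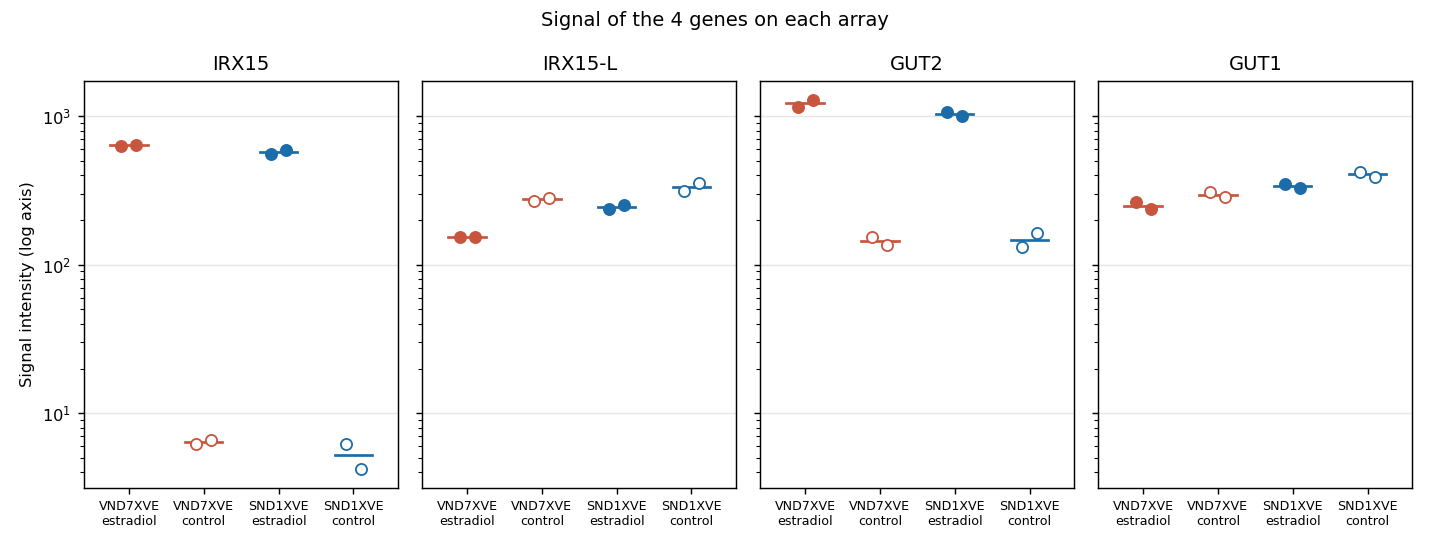
Signal intensity (log axis) of IRX15, IRX15-L, GUT2 and GUT1 on each of the 8 arrays, with 1 point per array, filled for estradiol and open for control, and a line at the group mean. For IRX15 and GUT2 the lowest estradiol point lies above the highest control point, while IRX15-L and GUT1 stand lower with estradiol than in the controls of the same line.

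IRX15-L, the relative of IRX15, moved the other way. VND7XVE cells had 153.3 and 153.5 intensity units with estradiol, against 269.0 and 282.9 in the VND7XVE controls. SND1XVE cells had 237.9 and 251.3 units with estradiol, against 313.9 and 353.9 in the SND1XVE controls. In each line both estradiol arrays were below both control arrays.

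The fall of IRX15-L in VND7XVE had a log2 effect of -0.78 ± 0.15 (limma, adjusted p = 0.00177), a signal 1.72-fold lower with 16 added. It was the 280th largest fall among all tested probe sets in VND7XVE. In SND1XVE the effect was -0.42 ± 0.15, with a 95% interval of -0.75 to -0.10, and did not pass the threshold (adjusted p = 0.0745). It did pass with quantile normalization, at -0.54 (adjusted p = 0.0239), and with each array centred on its median, at -0.52 (adjusted p = 0.0246). Both scalings lowered the median effect over all tested probe sets. It was -0.032 in VND7XVE and 0.015 in SND1XVE on the deposited scale, -0.077 and -0.034 with quantile normalization, and -0.146 and -0.083 with centring. They did not move every gene alike, since with quantile normalization IRX15 stood at 4.86 in VND7XVE and 4.78 in SND1XVE. The mean effect on IRX15-L over both lines was -0.60 ± 0.11 (limma, adjusted p = 0.000497), and it was called under every alternative tried (adjusted p of 8.96e-05 to 0.0036).

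GUT1, the relative of GUT2, had small negative values in both lines. VND7XVE cells had 263.3 and 236.7 intensity units with estradiol, against 307.3 and 284.2 in the VND7XVE controls. SND1XVE cells had 348.1 and 330.2 units with estradiol, against 421.3 and 388.7 in the SND1XVE controls. In each line both estradiol arrays were below both control arrays, as for IRX15-L, with a smaller gap. Groups of 2 arrays also separated for genes without a call, such as RCA in VND7XVE (-0.07, limma, adjusted p = 0.746). The share of all tested probe sets with such a separation was not counted, so the separation is a description.

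The effect on GUT1 was -0.23 ± 0.14 in VND7XVE (adjusted p = 0.347) and -0.24 ± 0.14 in SND1XVE (adjusted p = 0.291), with 95% intervals of -0.53 to 0.07 and of -0.55 to 0.06. Both a fall and a slight rise lie within these intervals. Averaged over both lines the effect was -0.24 ± 0.10, which also missed the threshold (limma, adjusted p = 0.104, unadjusted p = 0.0318). Both scalings brought it past the threshold, at -0.35 with quantile normalization (adjusted p = 0.0178) and at -0.34 with median centring (adjusted p = 0.0169). On the deposited scale AT4G34270, listed as a reference gene, had a mean effect of -0.25 ± 0.09 (limma, adjusted p = 0.0535). The other reference gene tested, AT2G28390, had 0.09 ± 0.12 (adjusted p = 0.632). GUT1 thus moved no further than 1 of these 2 genes.

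Counted over the 4 genes, 2 rose and 1 fell in VND7XVE, where 8.15% of all tested probe sets were called as rises and 6.37% as falls. In SND1XVE 2 rose and 0 fell by limma, with IRX15-L alone under 0.05 among the others at an unadjusted p (0.0142), beside 9.37% rises and 7.06% falls over all tested probe sets. For the mean effect over both lines 2 rose and 1 fell, beside 12.8% rises and 11.4% falls. The median effect over the 4 genes was 1.36 in VND7XVE and 1.22 in SND1XVE, against -0.03 and 0.02 over all tested probe sets. A median over so few genes with opposite effects describes none of them. The genes were proposed with earlier results of these arrays known, so the counts are a description.

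Within each pair the difference between the effects was large beside the array spread. The pairs were chosen with earlier results of these arrays known, so the direction and size of this difference are a description. The effect on IRX15 exceeded that on IRX15-L by 5.65 ± 0.11 in VND7XVE and by 5.23 ± 0.11 in SND1XVE on the log2 scale (SE with 4 residual degrees of freedom, from the ratio of both signals on each array). Unlike the limma SEs, those of the within-pair differences are not moderated. For the IRX15 pair they are smaller than the moderated SEs of its single effects, 0.22 and 0.15. The effect on GUT2 exceeded that on GUT1 by 3.17 ± 0.18 in VND7XVE and by 2.93 ± 0.18 in SND1XVE. Averaged over the lines these differences were 5.44 ± 0.08 and 3.05 ± 0.13. The difference in VND7XVE minus that in SND1XVE was 0.42 ± 0.15 for the IRX15 pair and 0.24 ± 0.25 for the GUT2 pair, values that were not put to a test. A two-sided exact permutation test of the arrays within each line gave p = 0.0556 for both pairs, which is the smallest p that its 36 arrangements allow, so the design cannot pass 0.05 by that test. The difference within the IRX15 pair rests in part on the pseudocount, being 7.14 with 1 and 3.77 with 64, through the low control signal of IRX15.

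**Figure D2:**
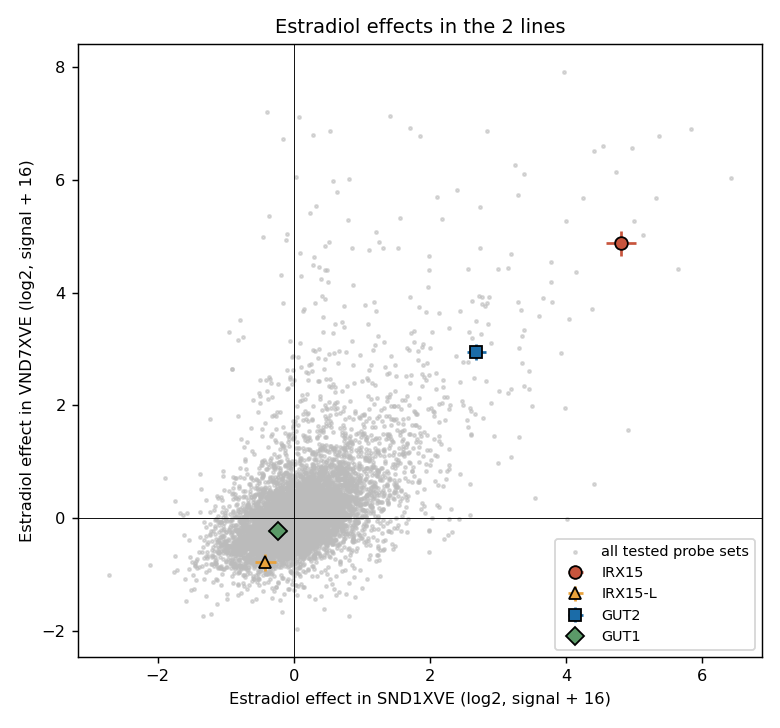
Estradiol effect in SND1XVE (x axis) and in VND7XVE (y axis), both log2 of signal with 16 added, for all 14768 tested probe sets (grey) and the 4 genes (symbols with SE bars). IRX15 at 4.80 and 4.87 and GUT2 at 2.68 and 2.94 lie near equal effects in both lines, and IRX15-L and GUT1 lie below 0 on both axes.

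No difference between the lines in the estradiol effect passed the threshold for any of the 4 genes, where 3.06% of all tested probe sets were called. The VND7XVE effect minus the SND1XVE effect was 0.06 ± 0.32 for IRX15, with a 95% interval of -0.61 to 0.73 (limma, adjusted p = 0.963). It was 0.26 ± 0.20 for GUT2 (interval -0.17 to 0.68, adjusted p = 0.669). For IRX15-L it was -0.36 ± 0.22 (interval -0.82 to 0.10, adjusted p = 0.525), and for GUT1 0.01 ± 0.20 (interval -0.41 to 0.44, adjusted p = 0.989). The call of IRX15-L in VND7XVE and its missing call in SND1XVE are therefore not shown to differ.

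The relatives also differed between the lines in level. GUT1 was lower in VND7XVE than in SND1XVE cells both in the controls (-0.43 ± 0.14, adjusted p = 0.0325) and with estradiol (-0.42 ± 0.14, adjusted p = 0.0353). Both calls stood close to the threshold. In controls the call on GUT1 was lost, as adjusted p, without VND7XVE control replicate 1 (0.0796) or 2 (0.17) and without SND1XVE control replicate 1 (0.129) or 2 (0.0543). With estradiol it was lost without VND7XVE estradiol replicate 1 (0.0687) or 2 (0.193) and without SND1XVE estradiol replicate 1 (0.145) or 2 (0.0782). Without the filter the adjusted p was 0.0547 and 0.0579. Of 11 other tested GT47 genes, 7 were lower and 0 higher in VND7XVE controls, and 5 lower and 1 higher with estradiol. Over all tested probe sets 13.8% were lower and 13.7% higher in controls, and 16.5% lower and 14.1% higher with estradiol. AT1G68470 and AT5G25820 passed the filter only through SND1XVE arrays, so these counts are a description.

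IRX15-L was lower in VND7XVE than in SND1XVE cells with estradiol, at 153.3 and 153.5 against 237.9 and 251.3 units (-0.62 ± 0.15, adjusted p = 0.00585), a call that was kept without any single array (adjusted p up to 0.0401). In the controls its difference was -0.26 ± 0.15 (adjusted p = 0.234). IRX15 and GUT2 had no call in either comparison of the lines: IRX15 differed by 0.14 ± 0.22 with estradiol and by 0.08 ± 0.22 in controls, and GUT2 by 0.24 ± 0.14 and by -0.02 ± 0.14. Thus 2 of the 4 genes were lower in VND7XVE with estradiol and 1 of 4 in controls, beside 16.5% of all tested probe sets lower and 14.1% higher with estradiol, and 13.8% lower and 13.7% higher in controls. Line differences were common on these arrays, and anything else that differed between the cell lines cannot be told apart from the factor they carry.

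The order of the group levels differed among the 4 genes. For GUT1 both VND7XVE groups lay below both SND1XVE groups. From low to high ran VND7XVE with estradiol, the VND7XVE control, SND1XVE with estradiol and the SND1XVE control, with no overlap of arrays between neighbours. For IRX15-L VND7XVE with estradiol was lowest, then SND1XVE with estradiol, the VND7XVE control and the SND1XVE control, again with no overlap. The middle groups were close, with 251.3 units on an SND1XVE estradiol array against 269.0 on a VND7XVE control array. Its line difference with estradiol (-0.62) was larger than its uncalled estradiol effect in SND1XVE (-0.42). The estradiol group of one line and the control group of the other were not compared by a test. For IRX15 and GUT2 both estradiol groups were highest, VND7XVE above SND1XVE, and the control groups of the lines overlapped.

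Few other genes of the xylan pathway have a named probe set in the table used here. Of 42 genes listed for the rest of the backbone, the reducing end, side chains, acetylation and UDP-xylose supply, 7 had one and 4 passed the filter; IRX9, IRX14, FRA8, IRX8, PARVUS, the GUX and GXM genes and the RWA genes were not analysed here. Of these 4, 1 rose and 0 fell in VND7XVE, beside 8.15% rises and 6.37% falls over all tested probe sets. In SND1XVE 2 rose and 0 fell, beside 9.37% rises and 7.06% falls. TBL34, a rise in both lines, passed the filter only through estradiol arrays, so that the counts are a description. At an unadjusted p, AT1G06890 was also under 0.05 in both lines.

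TBL34, an acetyltransferase gene of the TRICHOME BIREFRINGENCE-LIKE family that acts on xylan, had 789.7 and 851.2 intensity units in VND7XVE cells with estradiol, against 4.2 and 5.8 in VND7XVE controls. SND1XVE cells had 73.4 and 81.2 units with estradiol, against 6.2 and 28.9 in SND1XVE controls. It rose by 5.32 ± 0.33 in VND7XVE (limma, adjusted p = 3.91e-09) and by 1.56 ± 0.33 in SND1XVE (adjusted p = 0.00285). Its SND1XVE effect ran from 1.05 without SND1XVE control replicate 1 to 2.07 without SND1XVE control replicate 2, and was 2.41 with a pseudocount of 1 and 0.81 with 64. The control signals lay below the filter level in both lines, so the sizes of these effects depend on signals not shown to exceed background. Unlike for IRX15 and GUT2, the difference between the lines was called for TBL34 (3.75 ± 0.46, adjusted p = 0.000104). TBL34, like IRX15, passed the filter only through estradiol arrays, and without the filter its adjusted p was 6.61e-06 in VND7XVE and 0.0228 in SND1XVE.

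TBL32, of the same family, had effects of 0.38 ± 0.18 in VND7XVE (adjusted p = 0.191) and -0.21 ± 0.18 in SND1XVE (adjusted p = 0.499); its probe set is of the type that shares probes between transcripts, so its signal may include a related gene. The VND7XVE value passed without VND7XVE control replicate 2 (0.65, adjusted p = 0.0489). TBL28, TBL30 and TBL35 did not exceed 58.9 units on any array and were not tested.

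AT2G30460 and AT1G06890, listed from background knowledge as UDP-xylose transporter genes, had small effects. AT2G30460 stood at -0.08 ± 0.17 in VND7XVE (adjusted p = 0.834) and rose by 0.53 ± 0.17 in SND1XVE (adjusted p = 0.041). That call was lost without any one of the 4 SND1XVE arrays and without either VND7XVE estradiol array (adjusted p of 0.0562 to 0.187), and after quantile normalization, median centring or removal of the filter. AT1G06890 had 0.31 ± 0.12 in VND7XVE and 0.33 ± 0.12 in SND1XVE (adjusted p = 0.102 and 0.0817). For the mean over both lines AT1G06890 rose by 0.32 ± 0.09 (adjusted p = 0.0109), a call lost without VND7XVE estradiol replicate 2 (0.0535), with quantile normalization (0.0526) and with median centring (0.0723).

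The protein families of the 4 genes did not move as a block. Of 8 further DUF579 genes, the family of IRX15 and IRX15-L, 4 had a named probe set and only AT1G27930 was tested. AT1G27930 fell by 0.54 on the log2 scale in VND7XVE and fell by 0.49 in SND1XVE (SE 0.14 for both; limma, adjusted p = 0.0145 and 0.0231), the direction of IRX15-L. Both calls were weak. The first was lost without VND7XVE control replicate 1 or 2 or VND7XVE estradiol replicate 1 (adjusted p of 0.0907 to 0.266, with an effect of -0.29 in the last case), and the second without any one of the 4 SND1XVE arrays (0.0629 to 0.122). The other 3, AT1G67330, AT1G71690 and AT2G15440, did not exceed 44.5 units on any array.

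Of 35 further GT47 genes, the family of GUT2 and GUT1, 18 had a named probe set and 11 were tested. In VND7XVE 4 rose and 1 fell, with a median effect of 0.30 against -0.03 over all tested probe sets. In SND1XVE 3 rose and 2 fell, with a median of 0.14 against 0.02. Over all tested probe sets 8.15% rose and 6.37% fell in VND7XVE, and 9.37% rose and 7.06% fell in SND1XVE. For the mean effect over both lines 5 of the 11 rose, 2 fell and 4 had no call, beside 12.8% rises and 11.4% falls over all tested probe sets. The rises of these GT47 genes were smaller than that of GUT2, with 1.48 as the largest in either line. AT4G13990 and AT1G68470 passed the filter only through the arrays where they were high, so that the counts are a description.

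The 4 GT47 genes with the largest effects in either line were AT4G13990, AT1G68470, AT2G31990 and AT1G34270. AT4G13990 rose by 1.48 ± 0.36 in VND7XVE (adjusted p = 0.00856) and stood at 0.76 ± 0.36 in SND1XVE (adjusted p = 0.178). It too passed the filter only through estradiol arrays, and the VND7XVE call was lost without VND7XVE control replicate 1 (0.067) or estradiol replicate 2 (0.106). AT1G34270 rose by 0.76 ± 0.15 in both lines (adjusted p = 0.0018 in VND7XVE and 0.00173 in SND1XVE), and these calls were kept under every alternative tried.

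AT2G31990 rose by 0.90 ± 0.15 in VND7XVE (adjusted p = 0.000412) and by 0.54 ± 0.15 in SND1XVE (adjusted p = 0.0196), the SND1XVE call being lost without SND1XVE control replicate 2 (0.176) or estradiol replicate 1 (0.246). AT1G68470 had -0.34 ± 0.35 in VND7XVE (adjusted p = 0.621) and fell by 1.09 in SND1XVE (SE 0.35, adjusted p = 0.0451). AT1G68470 passed the filter only through its SND1XVE control arrays, at 89.3 and 112.5 units, with 20.4 to 45.6 units on the other arrays, and without the filter its adjusted p was 0.0932. The fall was also lost without any one of 6 arrays, the 4 of SND1XVE and both VND7XVE controls (adjusted p of 0.05 to 0.205), and with the replicate block (0.053). AT3G57630, named here after its values were seen, fell in both lines, with effects of -0.57 ± 0.14 in VND7XVE and -0.55 ± 0.14 in SND1XVE (adjusted p = 0.00829 and 0.00987). The VND7XVE call of AT3G57630 was lost without VND7XVE control replicate 1 (0.151) or estradiol replicate 1 (0.148), and the SND1XVE call without SND1XVE control replicate 1 (0.0642) or estradiol replicate 1 (0.102).

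**Figure D3:**
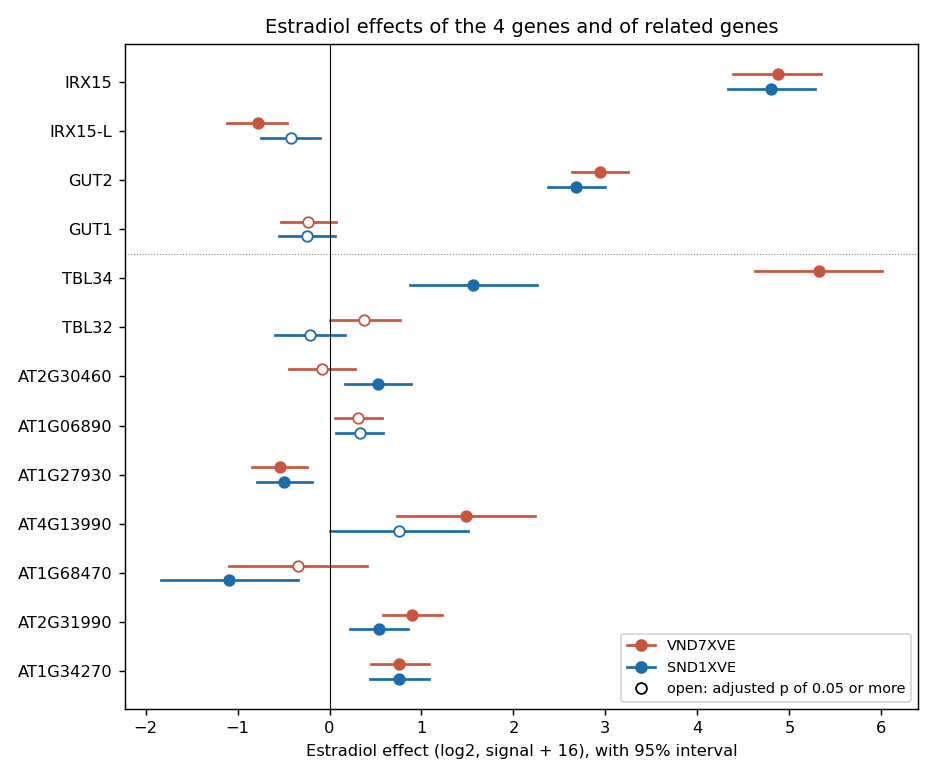
Estradiol effect (log2 of signal with 16 added) with its 95% interval in VND7XVE (upper of each pair) and SND1XVE (lower), for the 4 genes above the dotted line and for related genes under it. Filled points passed the threshold. IRX15, GUT2, TBL34, AT1G34270 and AT2G31990 rose in both lines, and AT1G27930 fell in both. Related genes other than TBL34 lie between -1.09 and 1.48.

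Named genes whose pattern was most like that of each member were found by the root mean square distance between the 4 group means of log2(signal + 16), each gene centred on its own mean, among 8100 tested probe sets that name 1 gene. For GUT2 the nearest was UGT74F1, a glycosyltransferase gene, at a distance of 0.087, with effects of 2.76 in VND7XVE and 2.56 in SND1XVE. AT4G04460 (0.122), AT4G34950 (0.159), AT1G30440 (0.191) and AT3G56060 (0.221) followed.

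For IRX15 no gene was that close. The nearest were AT5G03510 (0.445), AT5G15050 (0.477; GlcAT14B, a glucuronic acid transferase), AT3G47400 (0.483), AT2G04850 (0.559) and AT5G60720 (0.566). Their effects ran from 3.53 to 6.14 in VND7XVE and from 3.78 to 4.74 in SND1XVE. IRX15 and GUT2 were 1.012 apart, a distance that comes mostly from the larger rise of IRX15.

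The relatives had many genes close to them by this distance, which is not scaled by the size of a gene's effects. Genes with small effects therefore lie close together, and the counts depend on effect size. IRX15-L had 363 named genes within a distance of 0.2, the nearest being AT1G58410 (0.016), PUB23 (0.036; a U-box protein), AT1G29980 (0.038), AT2G22750 (0.041) and AT4G23880 (0.054). GUT1 had 1837 within 0.2, led by AT5G16450 (0.016), AT5G41100 (0.020), AT1G01225 (0.022), AT5G67490 (0.022) and AT1G70810 (0.027). Within that distance IRX15 had 0 genes and GUT2 had 4. IRX15-L and GUT1 were 0.206 apart, closer to each other than either was to its own relative (2.735 for IRX15-L and IRX15, 1.549 for GUT1 and GUT2). These distances restate the effect sizes of genes chosen with earlier results known, and do not show a shared pattern.

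IRX15 and GUT2 each had a tested neighbour on only 1 side of the chromosome, and neither neighbour had a call in either line. AT3G50210, next to IRX15, stood at -0.09 ± 0.11 in VND7XVE and 0.02 ± 0.11 in SND1XVE (adjusted p = 0.69 and 0.947). On the other side AT3G50230 did not exceed 14.1 units on any array and was not tested. AT1G27435, next to GUT2, stood at -0.06 ± 0.14 in VND7XVE and -0.21 ± 0.14 in SND1XVE (limma, adjusted p = 0.84 and 0.355). On the other side the nearest gene with a named probe set was AT1G27461, with 2 genes in between. It did not exceed 10.5 units and was not tested.

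Of the neighbours of the relatives, AT5G61830, next to GUT1, rose by 0.66 ± 0.17 in SND1XVE (adjusted p = 0.0127) and stood at 0.21 in VND7XVE (adjusted p = 0.512). That call was lost without SND1XVE control replicate 2 or estradiol replicate 2 (adjusted p of 0.0763 to 0.0916). AT5G61865 on the other side of GUT1, and AT5G67200 and AT5G67220 beside IRX15-L, had no call in either line.

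**Figure D4:**
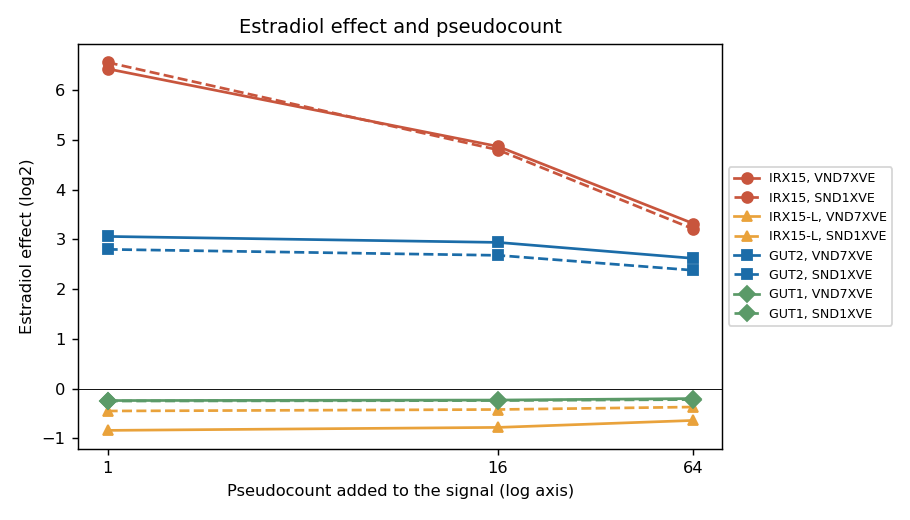
Estradiol effect (log2) of the 4 genes in VND7XVE (solid) and SND1XVE (dashed) with 1, 16 or 64 added to the signal (log axis). The effect on IRX15 lies between 3.21 and 6.56 across these settings, that on GUT2 between 2.38 and 3.06, and those on IRX15-L and GUT1 stay below 0.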

How the data were processed

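Affymetrix arrays of protoplast RNA were read as the intensity that the authors deposited for each probe set, a linear value from GCOS per the submitters' processing notes. The algorithm and scaling behind GCOS are not stated, and no detection call entered the tests. The trimmed mean leaves out 2% of values at each end. Groups and replicate numbers come from sample titles and treatment labels. Probe sets were named from the platform's annotation through NCBI reference genes (TAIR10.1): 13513 of 22746 named 1 gene, 503 several, and 8730 are not listed. Coordinates are left out because the array's build is unknown.

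Signals were transformed to log2(signal + 16). Testing required a signal over the 40th percentile on at least 2 arrays. The 4 groups entered 1 model in limma 3.58.1 under R 4.3.3 (eBayes with trend), two-sided, with Benjamini-Hochberg adjustment over the 14768 probe sets. A change is called at an adjusted p under 0.05, and standard errors are moderated, except those of the differences within a pair. The procedure was also run on simulated data with independent normal noise, which cannot show how it handles signals near background or technical replicates. Replicate numbers showed no shared deviation across groups: deviations of same-numbered arrays correlated at -0.031 to 0.024. Whether same-numbered arrays were handled together is not given in the labels and remains unknown. Other steps used Python 3.11.15. Alternatives were other pseudocounts, scalings, filters and variance models, a replicate block, 1 line alone, and leaving out each array. Named genes are the 4 members, tested pathway and DUF579 genes, the 4 GT47 genes with the largest effects, the 5 nearest patterns per member, and chromosome neighbours. Markers of cell types and 2 reference genes are named as well. Members and lists were chosen with earlier results of these data known.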

Additional observations from a re-analysis of the deposited data

Results flagged for a closer look

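The estradiol effect on TBL34 differed between the lines by the test of the difference itself: the VND7XVE effect exceeded the SND1XVE effect by 3.75 ± 0.46 on the log2 scale (SE, 2 arrays per group; limma, adjusted p = 0.000104), with effects of 5.32 and 1.56. The TBL34 signals of the controls, 4.2 and 5.8 units in VND7XVE and 6.2 and 28.9 in SND1XVE, lay below the filter level and are not shown to exceed background, so the exact size is uncertain. It lay between 2.87 and 4.69 under the alternatives tried and was called under each. Of the genes set beside IRX15, IRX15-L, GUT2 and GUT1 from the pathway and both families, it was the only one with such a call.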

How the results depend on the processing

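The rises of IRX15 and GUT2 in both lines, the fall of IRX15-L in VND7XVE and its lower level there with estradiol kept their direction and call under every alternative tried. IRX15-L in SND1XVE was called after quantile normalization (-0.54) and median centring (-0.52), and so was the mean effect on GUT1 (-0.35 and -0.34). The line difference of GUT1 in controls lost its call without the filter (-0.43) and ranged from -0.49 to -0.38 without single arrays. With estradiol the call was lost after quantile normalization (-0.39) and without the filter (-0.42), with -0.49 to -0.35 without single arrays. Uncalled values near 0 changed sign. The line difference in the effect on IRX15 was -0.13 with a pseudocount of 1 and ran from -0.0049 to 0.13 without single arrays. That for GUT1 was -0.0013 after centring and ran from -0.06 to 0.09. The control difference of GUT2 was 0.01 after centring and ran from -0.16 to 0.12. Without single arrays, uncalled VND7XVE effects ran from -0.18 to 0.02 for AT2G30460, -0.15 to 0.11 for AT5G67220, -0.03 to 0.45 for AT5G61830, -0.07 to 0.41 for AT5G67200 and -0.16 to 0.03 for AT1G27435. In SND1XVE they ran from -0.18 to 0.94 for AT5G61865 and from -0.04 to 0.08 for AT3G50210, which was -0.02 after quantile normalization and -0.08 after centring. Without the variance trend, the calls of AT1G27930 and AT3G57630 in both lines and of AT2G31990 and AT5G61830 in SND1XVE were lost. Without the filter, those of AT1G27930, AT2G31990, AT1G68470 and AT2G30460 in SND1XVE were lost. AT2G31990 also lost its call in SND1XVE after centring, AT1G68470 with a pseudocount of 1, and AT2G30460 with SND1XVE arrays alone. Causes were not tested. The within-pair differences ranged from 5.36 to 5.51 for IRX15 and from 2.95 to 3.15 for GUT2 without single arrays. With the replicate block no call of the 4 genes changed, IRX15 standing at 4.87 in VND7XVE and 4.80 in SND1XVE, and the calls over all tested probe sets numbered 2169 in place of 2144 in VND7XVE and 2457 in place of 2427 in SND1XVE. The call of AT1G68470 in SND1XVE was lost with it. Detection calls were not used, so how far the control signals of IRX15 and TBL34 exceed background is unknown, and the number of arrays limits the precision.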
